A study of Homo sapiens with 8 samples.

Results

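The insulin-like growth factor (IGF) axis was followed in human colorectal cancer cells through 10 genes, chosen as the rows of the deposited gene tables whose symbol is IGF2, H19, IGF1R, IGF2R, IGFBP2, IGFBP3, IGFBP4, IGFBP6, IRS1 or IRS2, out of 25192 rows in all. The cells were the lines HT29 and SW480, both of which carry a truncated APC protein. Each line received either control siRNA (siCon, which the study describes as directed against firefly luciferase) or Prdx2 siRNA (siPrdx2) against PRDX2, the gene of peroxiredoxin II (PrxII), a peroxidase that removes hydrogen peroxide. RNA was taken 36 h after transfection in duplicate, giving 4 groups of 2 libraries and 8 libraries in all, and the labels do not say whether duplicates were separate cultures. HT29 cells grew in McCoy's 5A medium and SW480 cells in RPMI1840 medium, both with fetal bovine serum. The line, the medium and any separate preparation or sequencing of the lines therefore cannot be told apart. The labels do not give which PRDX2 siRNA sequence was used, so an effect of the single reagent and of PrxII loss cannot be told apart either.

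IGF2 and IGF1 are secreted ligands that activate the receptor tyrosine kinase IGF1R, and IGF2 also binds the insulin receptor INSR. The activated receptors phosphorylate the adaptors IRS1 and IRS2, which recruit phosphoinositide 3-kinase and so feed the AKT and mTOR pathway. IGF2R, also the mannose 6-phosphate receptor, carries IGF2 to lysosomes for breakdown, and the IGF-binding proteins (IGFBPs) hold the ligands in the extracellular fluid and limit or prolong their action. IGF2 and the non-coding RNA H19 are neighbouring imprinted genes, IGF2 read from the paternal and H19 from the maternal copy, and loss of IGF2 imprinting is a known event in colorectal tumours.

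Promoter windows of RefSeq (build GRCh38.p14, 250 bases before to 50 bases after each listed start, 300 bases) were found for 9 of the 10 genes. The windows of 2 genes, picked by their RNA levels, are printed, and no result on RNA levels below uses a window. IGF2R was the member that rose after PrxII depletion in HT29 cells, and its window at chr6:159968832-159969131 on the plus strand held 3 copies of the palindromic E-box CACGTG, shown in capitals. IGFBP3 was the member listed at 0 in one line and abundant in the other, and its window at chr7:45921223-45921522 on the minus strand held 36 CG dinucleotides, shown in capitals.
IGF2R: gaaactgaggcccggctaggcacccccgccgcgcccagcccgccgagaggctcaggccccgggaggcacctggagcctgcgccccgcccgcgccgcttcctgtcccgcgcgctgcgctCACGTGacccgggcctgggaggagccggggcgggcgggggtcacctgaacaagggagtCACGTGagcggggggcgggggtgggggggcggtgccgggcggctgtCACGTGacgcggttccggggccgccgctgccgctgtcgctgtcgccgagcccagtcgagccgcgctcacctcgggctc
IGFBP3: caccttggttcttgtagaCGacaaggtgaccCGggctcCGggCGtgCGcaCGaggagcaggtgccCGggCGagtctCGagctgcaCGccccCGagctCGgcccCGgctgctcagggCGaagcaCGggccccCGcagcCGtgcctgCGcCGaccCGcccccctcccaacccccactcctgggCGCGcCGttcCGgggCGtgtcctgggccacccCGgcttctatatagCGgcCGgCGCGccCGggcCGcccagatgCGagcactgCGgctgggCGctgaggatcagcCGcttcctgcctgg

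CACGTG, which reads the same on both strands and itself contains a CG, was present in 7.26% of the 35116 windows of the table, and 0.094% of windows held 3 or more copies. Among the members only IGF2R, with 3, and IRS1, with 1, had a copy in these windows. The IGFBP3 window lay at the 87.3 percentile of CG count, where the median window had 14. The windows of IGF1R with 55, IRS2 with 50, IRS1 with 47 and IGF2R with 41 CG dinucleotides were denser still, and those of H19 with 6 and IGFBP6 with 12 were below the median. IGFBP4 had 30, and the 3 windows listed for IGFBP2 had 8, 28 and 6. A match describes these letters only and is not evidence of binding, and methylation was not measured here.

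The libraries held 8857442 to 10164137 expected counts, so that 3 counts corresponded to 0.295 to 0.339 CPM (counts scaled to the library's total), which covers counting error only. All 8 colorectal epithelial markers examined, from EPCAM and KRT8 to CDX2, were above 0 in every group, but not all were high in SW480. KRT20 was at 0.79 to 1.34 TPM in SW480 against 546.01 to 769.83 TPM in HT29. CDH1 was at 11.98 to 14.71 against 253.49 to 270.33 TPM. CDX2 went the other way, at 18.82 to 31.47 TPM in SW480 against 8.23 to 13.67 TPM in HT29. In SW480, KRT20 lay below the fibroblast marker COL1A1 (7.35 to 9.33 TPM) and the leukocyte marker CD68 (12.63 to 21.67 TPM). Markers of other cells were low apart from CD68, which in HT29 was at 19.19 to 27.94 TPM and so above CDX2. The 6 fibroblast markers summed to 2.06 to 3.14 TPM in HT29 and 9.31 to 12.4 TPM in SW480 cells, with DCN listed at 0 in every library, COL3A1 at no more than 0.04 TPM and COL1A1 the highest in SW480. The 3 endothelial markers summed to at most 1.96 TPM and the 3 liver markers to at most 3.25 TPM. Of the 3 leukocyte markers PTPRC was listed at 0 throughout and CD68 made up nearly all of the sum of 12.6 to 27.9 TPM. PRDX2 itself was at 148 and 154 CPM with control siRNA and at 82.4 and 83.2 CPM with Prdx2 siRNA in HT29 cells, and at 209 and 246 against 69.5 and 70.7 CPM in SW480 cells. The duplicates were close in 3 groups. In SW480 control cells they stood apart, with a chi-square per degree of freedom of 10.6 between the pair against 1.42 to 2.08 in the other pairs. There the difference of replicate 1 from replicate 2 followed transcript GC content (Spearman rho -0.696 over 12952 genes, against -0.123 to -0.182 in the other pairs), with GC-rich transcripts lower in replicate 1. All 10 members are richer in GC than the median gene, from 49.4% in IGF2R to 64.2% in IGFBP6, and 9 of the 10 were lower in SW480 control replicate 1 than in replicate 2, where 50.7% of the tested genes were. For the members, SW480 knockdown results are therefore followed by the values without each control library and with a GC correction.

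Levels between genes were compared in TPM, a share of a library's transcripts that is scaled by transcript length. IGF2 was read at 35.8 and 36.7 TPM in HT29 control cells and 21.7 and 29.2 TPM in SW480 control cells. After Prdx2 siRNA it was at 29.6 and 32.3 TPM in HT29 and at 31.0 and 30.2 TPM in SW480. The ligand was thus highest in HT29 control cells, with no overlap with any other group, and lowest in SW480 control cells. The depleted groups of the 2 lines overlapped. These values placed IGF2 between the 63.3 and 69.8 percentile of the genes with a TPM above 0.

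IGF2 lies on chromosome 11 of GRCh37 (hg19) from 2150342 to 2179621 on the minus strand, and H19 125 kb away from 2016396 to 2025782 on the same strand. H19 was near the limit of detection although IGF2 was plainly expressed. It had 2 and 1 counts in the HT29 control libraries, 0 and 0 in the HT29 siPrdx2 libraries, 6 and 15 in the SW480 control libraries and 6 and 12 in the SW480 siPrdx2 libraries. The 0 counts allow up to 0.295 and 0.318 CPM in these 2 libraries. Between the control groups the ratio of SW480 to HT29 H19 counts was 7.45 with an exact 95% counting interval of 2.22 to 39.0, and H19 did not pass the count filter of at least 10 counts in 2 libraries for a test there. The read-through gene INS-IGF2 and the antisense gene IGF2-AS overlap IGF2, and the library kit does not mark strand, so their reads cannot be told apart from those of IGF2 where they share sequence. RSEM assigned to INS-IGF2 13.6 counts in 1 HT29 control library and 12.9 and 13.1 counts in 1 SW480 library of each treatment, and 0 elsewhere. IGF2-AS was listed at 0 in all HT29 libraries and at 2 to 10 counts in SW480.

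In both lines IGFBP4 was the most abundant member. In HT29 control cells the order of mean TPM was IGFBP4 (351), IGFBP6 (220), IGF2R (70.1), IRS1 (48.3), IGF2 (36.3), IGFBP2 (35.6), IGF1R (18.98), IRS2 (10.6), H19 (0.145) and IGFBP3 (listed at 0). The libraries of each pair of neighbours down to H19 were separate, except IGF2 and IGFBP2, which overlapped. H19 and IGFBP3 had at most 2 counts per library, under the floor of 3 counts, and cannot be ordered between them. In SW480 control cells the order was IGFBP4 (547), IGFBP6 (176), IGFBP3 (145), IGF2R (70.9), IGFBP2 (55.5), IRS2 (32.4), IGF2 (25.4), IGF1R (13.9), IRS1 (12.5) and H19 (1.11). Here IGF2R and IGFBP2 overlapped, as did IGF1R and IRS1. IRS1 stood 4th in HT29 and 9th in SW480 cells, while IGFBP3 was listed at 0 in HT29 and stood 3rd in SW480.

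**Figure D1:**
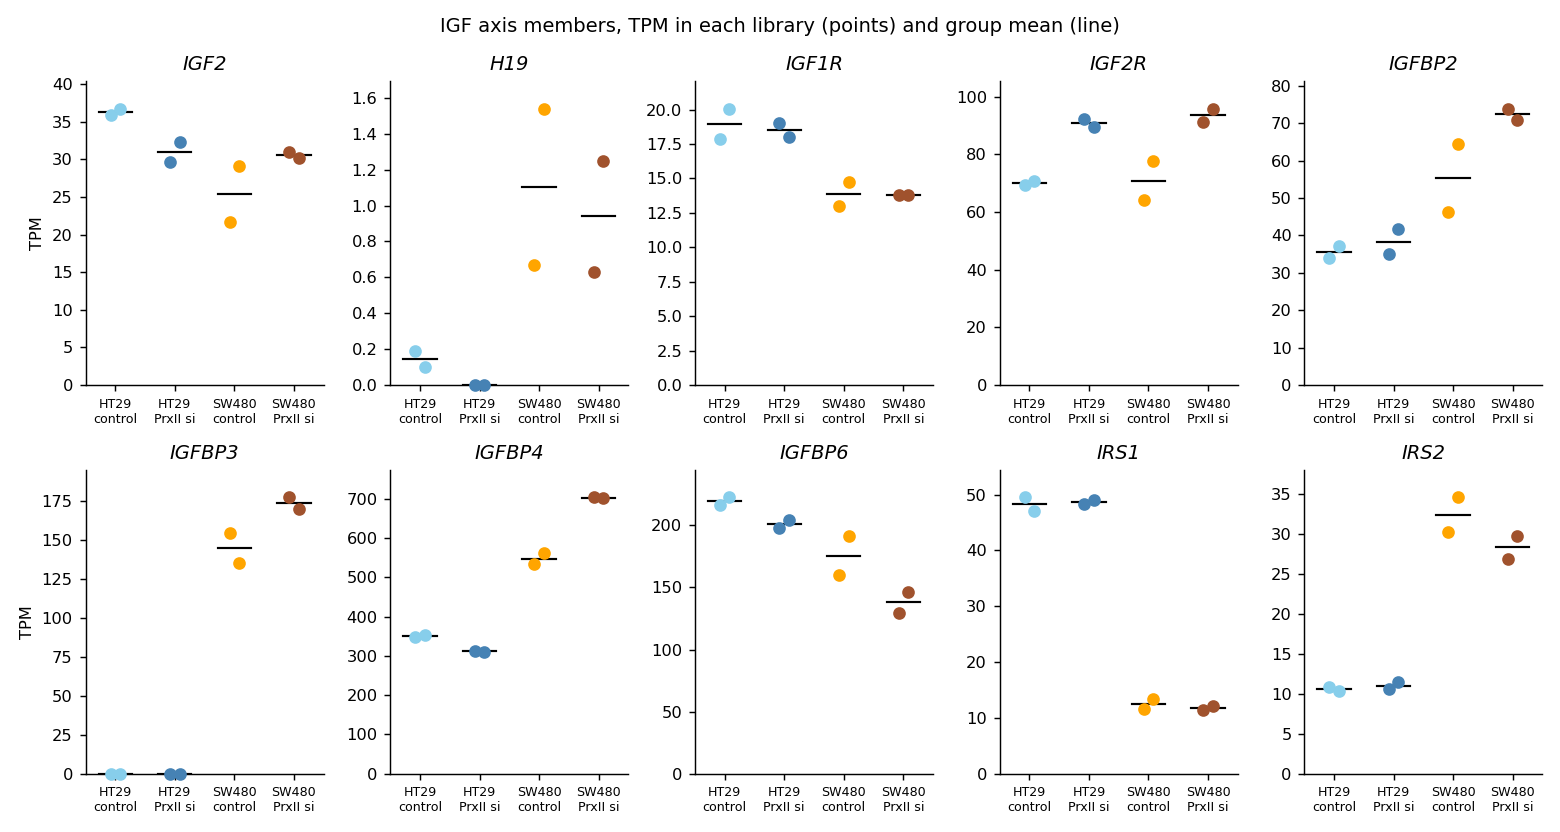
Each panel gives the TPM of 1 member on a linear axis from 0, with a point for each of the 2 libraries per group and a line at their mean (PrxII si, Prdx2 siRNA). IRS1 and IRS2 change places between the lines, IGFBP3 is listed at 0 in every HT29 library, and the SW480 control points lie far apart for IGF2, IGF2R and IGFBP2.

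The 2 lines were compared with control siRNA alone, using edgeR's quasi-likelihood test on the expected counts with Benjamini-Hochberg adjustment over all tested genes and a threshold of 0.05. Of the 9 members tested, 8 differed, 4 higher in HT29 and 4 higher in SW480. IGFBP3, among the latter, had 0 counts in both HT29 controls and passed the count filter only through SW480, so its direction was fixed in advance. The background is high, since 67.5% of the 14346 genes tested differed, 31.8% higher in HT29 and 35.7% higher in SW480, so the sizes say more than the count. With 2 libraries a group, a p-value rests on how far the duplicates lie apart, and that distance may be only technical. In bulk RNA, fewer cells making a transcript and less of it per cell cannot be told apart.

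Among the members that were tested and had counts in both lines, the adaptors differed most, and in opposite directions. IRS1, on chromosome 2 from 227596028 to 227664536, was at 206 and 196 CPM in HT29 and 43.9 and 51.2 CPM in SW480, a difference of 2.08 on the log2 scale, HT29 over SW480 (95% interval 1.80 to 2.35, edgeR adjusted p = 1.29e-06). IRS2, on chromosome 13 from 110405042 to 110438930, was at 36.0 and 34.5 CPM in HT29 and 91.7 and 106 CPM in SW480, a difference of -1.49 (interval -1.77 to -1.20, edgeR adjusted p = 1.19e-05). The libraries of the lines did not overlap for either gene. On the length-scaled TPM, the ratio of IRS1 to IRS2 was 4.58 and 4.54 in HT29 control libraries and 0.383 and 0.388 in SW480 control libraries.

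The ligand and its signalling receptor were both moderately higher in HT29. IGF2 was at 82.1 and 84.1 CPM in HT29 against 46.0 and 62.5 CPM in SW480 (log2 difference 0.61, interval 0.27 to 0.96, edgeR adjusted p = 0.0065). IGF1R, on chromosome 15 from 99191768 to 99507759, was at 95.9 and 107 CPM against 63.3 and 72.6 CPM (log2 difference 0.58, interval 0.30 to 0.86, edgeR adjusted p = 0.00284). The clearance receptor IGF2R, on chromosome 6 from 160390114 to 160534539, overlapped between the lines at 301 and 305 against 253 and 309 CPM, and its difference of 0.11 (interval -0.16 to 0.37, edgeR adjusted p = 0.433) did not pass the test. Its call depended on the setting, with 0.24 under GC correction (adjusted p = 0.0217) and -0.11 without SW480 control replicate 1 (adjusted p = 0.0206). The other ligand, IGF1, was listed at 0 in all HT29 libraries and had 81 and 86 counts in SW480 controls, at least 29.3-fold higher in SW480 when each HT29 library is set to 3 counts. INS was listed at 0 in all 4 control libraries. INSR, the insulin receptor, overlapped between the lines at 19.8 and 24.5 CPM in HT29 against 21.6 and 24.8 CPM in SW480 (log2 difference -0.07, interval -0.44 to 0.31).

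**Figure D2:**
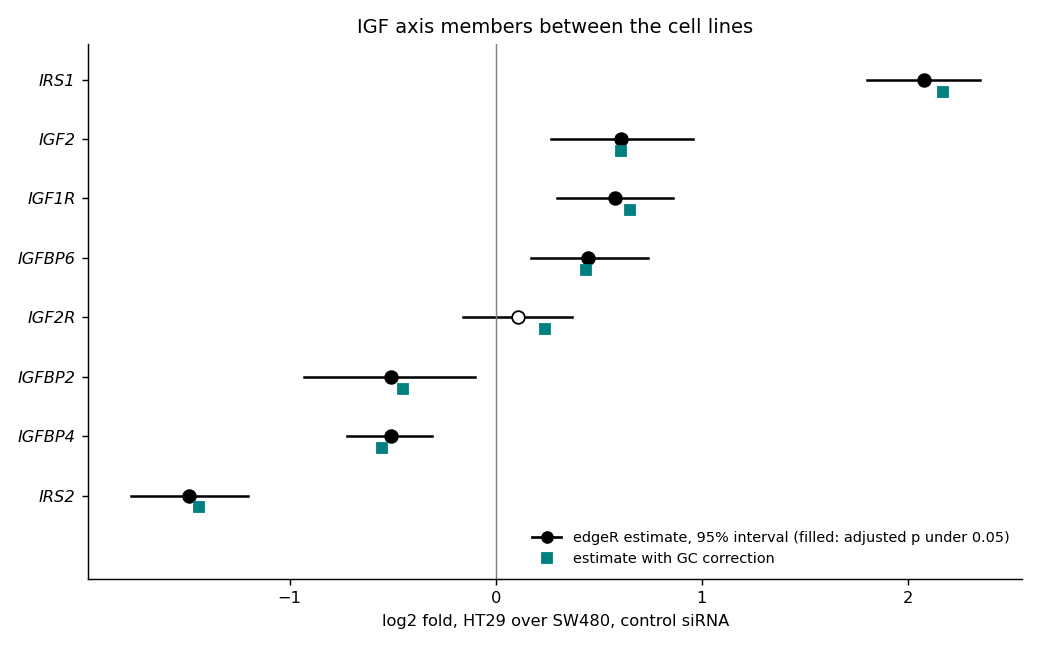
Log2 fold of HT29 over SW480 with control siRNA for 8 members, with circles and bars for the edgeR estimate and its 95% interval (filled where the adjusted p is under 0.05) and squares for the GC-corrected estimate. IRS1 at 2.08 and IRS2 at -1.49 lie at the ends, IGF2R is the open circle, and IGFBP3 and H19 are left out because HT29 counts were at or near 0.

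Of the binding proteins, IGFBP3 separated the lines completely. This carrier of most circulating IGF, on chromosome 7 from 45951844 to 45961473, was listed at 0 in all 4 HT29 libraries and had 1564 and 1494 counts in SW480 controls and 1905 and 1860 counts in SW480 siPrdx2 libraries. SW480 control cells were at least 538-fold higher, with each HT29 control library set to 3 counts. IGFBP4, on chromosome 17 from 38599702 to 38613977, was at 364 and 370 CPM in HT29 and 507 and 539 CPM in SW480 (log2 difference -0.51, edgeR adjusted p = 0.00104). IGFBP2, on chromosome 2 from 217497551 to 217529159, was at 22.4 and 24.5 CPM in HT29 and 27.8 and 39.1 CPM in SW480 (log2 difference -0.51, edgeR adjusted p = 0.0323). IGFBP6, a binding protein with a preference for IGF2, lies on chromosome 12 from 53491220 to 53496129 and was the one higher in HT29, at 94.7 and 97.1 CPM against 63.3 and 76.8 CPM (log2 difference 0.45, edgeR adjusted p = 0.0114). Without 1 HT29 control library the single remaining library borrows its spread from the SW480 pair, and then only 4 or 5 members kept a call. IRS1, IRS2, IGFBP3 and IGF2 kept it in both cases, and IGF1R when replicate 1 was left out. Without SW480 control replicate 1 the differences were 0.33 for IGF2, 0.24 for IGFBP6 and -0.82 for IGFBP2, and without replicate 2 that of IGFBP2 was -0.31, all still past the threshold.

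The summed TPM of IGFBP1 to IGFBP7 was 598 and 614 in HT29 control libraries and 1092 and 1144 in SW480 control libraries. In HT29, IGFBP4 made up 58.1% and 57.7% of this sum and IGFBP6 36.2% in both libraries, with IGFBP2 the only other contributor above 1 TPM. In SW480, IGFBP4 was 48.8% and 49.0%, IGFBP7 18.0% and 16.7%, IGFBP6 14.6% and 16.7% and IGFBP3 14.1% and 11.8%. IGFBP7, a related protein that binds IGFs weakly, had 0 and 2 counts in the HT29 controls and 830 and 882 in the SW480 controls. IGFBP1 and IGFBP5 stayed at or below 1.45 TPM in every library. The sum did not overlap between treatments in either line, at 547 and 556 TPM after Prdx2 siRNA in HT29 and 1228 and 1242 TPM in SW480, so that the group means went from 606 to 551 in HT29 and from 1118 to 1235 in SW480. In SW480 the mean of IGFBP4 alone went from 547 to 703 TPM, and its edgeR log2 fold change was 0.27, or 0.0023 with GC correction. TPM is relative to all other transcripts of a library, and these sums were neither corrected for GC content nor tested.

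In HT29 cells PrxII depletion was followed by a rise of IGF2R and by falls of IGF2, IGFBP4 and IGFBP6. These were 4 of the 8 members tested, 1 higher and 3 lower, where 17.6% of the 12961 genes tested passed the threshold, 7.76% higher and 9.82% lower. The median log2 fold change was -0.08 over these 8 members and 0.00 over all tested genes. In 5 of the 8 members the groups did not overlap, against 57.0% of the tested genes, so separation of the duplicates was by itself common. H19 and IGFBP3 were not tested, with at most 2 counts per library.

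IGF2R was at 294 and 299 CPM with control siRNA and at 373 and 364 CPM with Prdx2 siRNA in HT29. Both depleted libraries lay above both controls, a log2 fold change of 0.31, or 24.2% (SE 0.03, interval 0.25 to 0.38, edgeR adjusted p = 1.63e-06). IGF2 was at 80.3 and 82.5 CPM with control siRNA and at 63.5 and 69.6 CPM with Prdx2 siRNA. Both depleted libraries lay below both controls, and the log2 fold change of -0.29 (SE 0.06, interval -0.42 to -0.17, edgeR adjusted p = 0.00179) is a fall of 18.4%. With the INS-IGF2 counts added it was -0.31 (edgeR adjusted p = 0.00117), and limma on log2(TPM + 1) gave -0.23 with an adjusted p of 0.0663. The ratio of IGF2R to IGF1R in TPM was 3.88 and 3.52 in the control libraries and 4.85 and 4.98 in the depleted ones.

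IGFBP4 and IGFBP6, the most abundant binding proteins of HT29, both fell. IGFBP4 was at 356 and 363 CPM with control siRNA and 306 and 305 CPM with Prdx2 siRNA, with each pair nearly equal (log2 fold change -0.23, SE 0.03, edgeR adjusted p = 3.84e-05). IGFBP6 went from 92.7 and 95.3 to 80.7 and 83.8 CPM (log2 fold change -0.19, SE 0.05, edgeR adjusted p = 0.013). The IGFBP6 call was the least firm of these, since DESeq2 gave an adjusted p of 0.191, and leaving out control replicate 2 or siPrdx2 replicate 1 gave edgeR adjusted p-values of 0.0595 and 0.117. IGF2R, IGF2 and IGFBP4 kept their calls without any 1 of the HT29 libraries. When all 8 libraries were fitted together, none of the 4 passed, with adjusted p from 0.112 to 0.469, the spread then being shared with the SW480 libraries.

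The receptor IGF1R, the adaptors and IGFBP2 did not pass the test in HT29. IGF1R was at 93.8 and 105 CPM with control siRNA and at 95.2 and 90.4 CPM with Prdx2 siRNA (log2 fold change -0.10, interval -0.22 to 0.02, edgeR adjusted p = 0.267), and it passed only without control replicate 1 (-0.18, adjusted p = 0.0273). IRS1 was at 202 and 192 against 188 and 191 CPM (log2 fold change -0.06, interval -0.14 to 0.03). IRS2 overlapped at 35.2 and 33.8 against 33.0 and 35.8 CPM (-0.01, interval -0.17 to 0.16), as did IGFBP2 at 22.0 and 24.0 against 21.6 and 25.8 CPM (0.04, interval -0.18 to 0.26). These intervals bound the size of a change and do not show that the levels were equal.

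**Figure D3:**
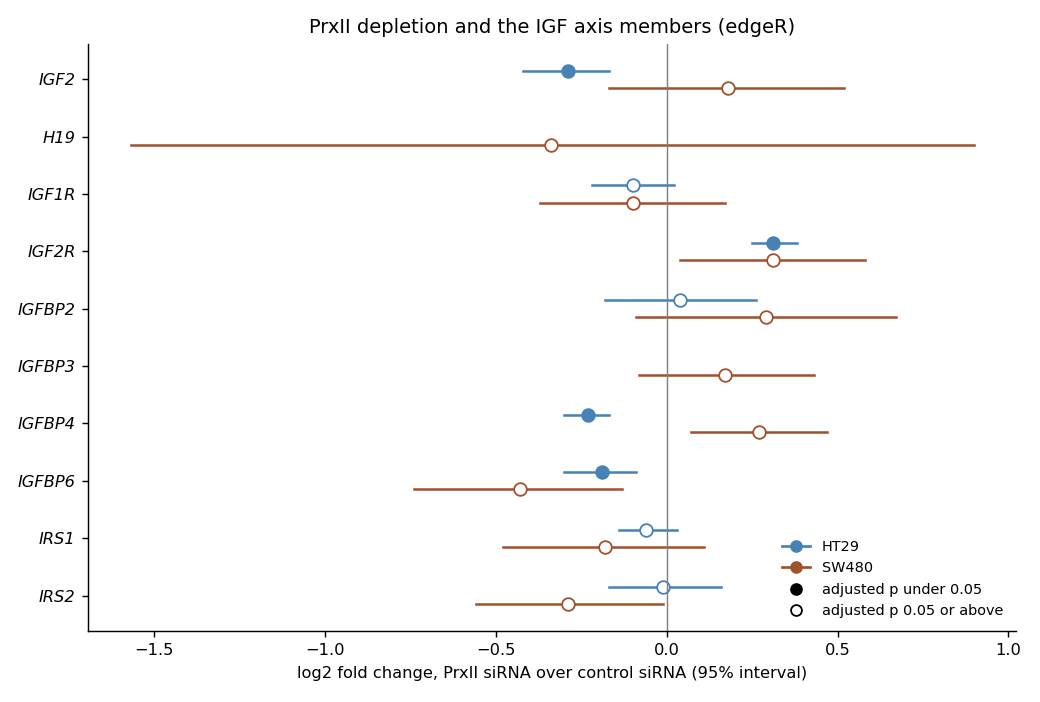
Log2 fold change of each member after Prdx2 siRNA over control siRNA (x axis) in HT29 and SW480 cells, with the 95% interval from edgeR and filled circles where the adjusted p is under 0.05. IGF2R sits at 0.31 in both lines, IGFBP4 at -0.23 in HT29 and 0.27 in SW480, and H19 and IGFBP3 have no HT29 value because they were not tested there.

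In SW480 cells none of the 10 members passed the threshold with edgeR, and none did with DESeq2 or limma, while 3.30% of the 14112 genes tested passed with edgeR. These were 172 higher and 294 lower, against 126 and 88 with limma and 1071 and 1069 with GC correction. An unadjusted p under 0.05 was reached by 4 members, IGF2R, IGFBP4, IGFBP6 and IRS2. In 7 of the 10 the groups did not overlap, against 58.6% of all tested genes. The median log2 fold change of the members was 0.04, against 0.00 over all genes.

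IGF2R was at 265 and 324 CPM with control siRNA and at 356 and 374 CPM with Prdx2 siRNA, again with both depleted libraries on top, a log2 fold change of 0.31 (interval 0.04 to 0.58, edgeR adjusted p = 0.156). Its size equalled that in HT29, but control replicate 1 lay far below replicate 2, and the estimate was 0.17 without replicate 1 and 0.45 without replicate 2. The GC correction gave 0.32 with an adjusted p of 0.0273, and the fit of all 8 libraries 0.31 with an adjusted p of 0.0356. IGF2R in TPM was 64.1 and 77.7 in controls and 91.4 and 95.9 after depletion, and its ratio to IGF1R went from 4.94 and 5.27 to 6.63 and 6.96.

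IGF2 overlapped between the SW480 groups, at 48.3 and 65.5 CPM with control siRNA and 65.1 and 63.7 CPM with Prdx2 siRNA (log2 fold change 0.18, interval -0.17 to 0.52, edgeR adjusted p = 0.493). Its direction rested on control replicate 1, since the value was -0.03 without that library, 0.41 without replicate 2 (adjusted p = 2.73e-05) and -0.02 with GC correction. IGFBP2 was at 29.1 and 41.0 against 43.9 and 42.2 CPM (0.29, edgeR adjusted p = 0.307). Its direction held, but its size was 0.07 without control replicate 1, 0.56 without replicate 2 (adjusted p = 8.81e-06) and 0.15 with GC correction.

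IGFBP4 was at 532 and 565 CPM with control siRNA and at 663 and 661 CPM with Prdx2 siRNA in SW480, where the groups did not overlap (log2 fold change 0.27, interval 0.07 to 0.47, edgeR adjusted p = 0.117). It was 0.23 and 0.31 without control replicate 1 and 2, and 0.0023 with GC correction. IGFBP6, the member richest in GC, was at 66.5 and 80.5 against 51.1 and 57.7 CPM (log2 fold change -0.43, interval -0.74 to -0.13, edgeR adjusted p = 0.108), and GC correction took it to -0.73 with an adjusted p of 2.85e-04. It was -0.57 without control replicate 1 and -0.29 without replicate 2. IGFBP3 was at 181 and 160 against 196 and 188 CPM (0.17, edgeR adjusted p = 0.36), and it was the one member higher in control replicate 1 than in replicate 2. It was 0.26 without replicate 1 (adjusted p = 0.00118), 0.08 without replicate 2 and 0.14 with GC correction.

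Among the adaptors of SW480, IRS2 was at 96.3 and 111 CPM with control siRNA and 80.4 and 89.4 CPM with Prdx2 siRNA (log2 fold change -0.29, interval -0.56 to -0.01, edgeR adjusted p = 0.189), and at -0.46 with GC correction (adjusted p = 0.00178), -0.39 without control replicate 1 and -0.19 without replicate 2. IRS1 was at 46.1 and 53.7 against 42.7 and 45.4 CPM (-0.18, edgeR adjusted p = 0.409), and at -0.29 without control replicate 1 (adjusted p = 0.00725), -0.07 without replicate 2 and -0.21 with GC correction. IGF1R was at 66.5 and 76.1 against 66.5 and 66.6 CPM (-0.10, edgeR adjusted p = 0.629), with -0.20 without control replicate 1 (adjusted p = 0.0272), -0.0041 without replicate 2 and -0.14 with GC correction. H19 was at 0.694 and 1.60 against 0.617 and 1.21 CPM (-0.34, interval -1.57 to 0.90), with -0.80 without control replicate 1 and -0.60 with GC correction, and it did not pass the count filter without replicate 2. Without control replicate 1 edgeR called 7 members and without replicate 2 it called 6, but 1 control library then stands alone, its spread is taken from the close siPrdx2 pair, and 3437 and 7364 genes were called in these fits against 466 with all 4 libraries.

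**Figure D4:**
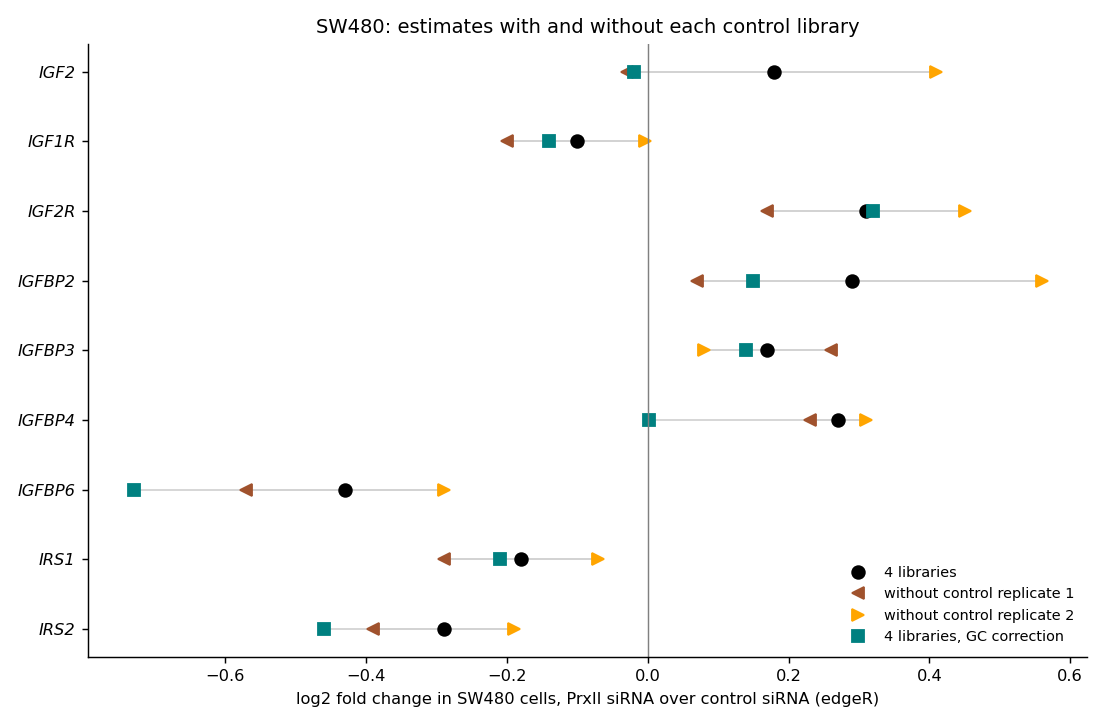
Log2 fold change in SW480 cells for 9 members with all 4 libraries (circles), without control replicate 1 or 2 (triangles) and with GC correction (squares). IGF2 moves from -0.03 to 0.41 with the control library left out and is the only member shown with estimates on both sides of 0. IGFBP4 goes to 0.0023 with GC correction.

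The difference of the effect between the lines was tested as an interaction in 1 fit of all 8 libraries. IGFBP4 was the only member of 10 to pass, where 1.12% of 14772 genes did. Its log2 difference, HT29 minus SW480, was -0.50 (SE 0.08, interval -0.69 to -0.32, edgeR adjusted p = 0.0222), made of -0.23 in HT29 and 0.27 in SW480. With GC correction it was -0.21 with an adjusted p of 0.187. Leaving out any 1 of 6 libraries, that is every library other than the SW480 controls, gave -0.52 to -0.49 with adjusted p-values of 0.174 to 0.198, and leaving out SW480 control replicate 1 or 2 gave -0.46 and -0.56 with the call kept.

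The IGF2 effect differed by -0.47 (interval -0.84 to -0.09, edgeR adjusted p = 0.184), and by -0.25 with GC correction (adjusted p = 0.134), so a difference between the lines was not shown. It was -0.27 without SW480 control replicate 1 (adjusted p = 0.0811) and -0.72 without replicate 2 (adjusted p = 1.74e-05). For IGF2R the difference was 0.00 (interval -0.27 to 0.28) and for IGF1R 0.00 (interval -0.28 to 0.29). Without SW480 control replicate 2 the IGF2R value was -0.16 with an adjusted p of 0.0361, and without replicate 1 it was 0.14 (adjusted p = 0.138). IGFBP6 at 0.24 and IRS2 at 0.28 did not pass, although with GC correction they did, at 0.57 (adjusted p = 0.00167) and 0.46 (adjusted p = 0.0164). IGFBP3 and H19 have no usable difference, since they were at or near 0 in HT29. The depletion itself was unequal, with PRDX2 at -0.87 in HT29 and -1.70 in SW480 on the log2 scale (difference 0.84, edgeR adjusted p = 0.0128, and 0.122 to 0.159 without any 1 of the 6 libraries other than the SW480 controls), and its part in these differences was not tested.

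A list of 79 further genes of the axis was read beside the members, of which 57 were tested in HT29, 66 in SW480 and 67 between the lines. In HT29 cells 15 of the 57 passed, 9 higher and 6 lower, against 17.6% of all genes, with a median of -0.02. The falls were the less firm with DESeq2, which called 3 of the genes higher and 0 lower. Over all genes DESeq2 called 315 higher and 556 lower. With limma 8 genes of the list were called higher and 0 lower. Over all genes limma on log2(TPM + 1) called 1252 higher and 548 lower, against 1006 and 1273 with edgeR. The limma fit also moved the median log2 fold change of all genes by 0.06. Of the 30 genes of the phosphoinositide 3-kinase, AKT and mTOR arm, 7 rose and 2 fell, against 7.76% and 9.82% of all genes. FOXO3, a transcription factor kept out of the nucleus by AKT, rose from 133 and 134 to 177 and 163 CPM (log2 fold change 0.35, edgeR adjusted p = 5.90e-05). EIF4EBP1, a translation repressor inactivated by mTOR, rose from 10.6 and 11.3 to 17.0 and 17.6 CPM (0.66, edgeR adjusted p = 0.0011). DEPTOR, an inhibitory partner of mTOR, rose from 10.2 and 11.4 to 16.8 and 16.7 CPM (0.64, edgeR adjusted p = 0.00176). The groups of all 3 were separate. The other risers of this arm were FOXO4, GSK3A, PDPK1 and PIK3R2, and PIK3R1 and AKT1S1 fell.

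Among the 12 receptors, adaptors and phosphatases tested in HT29, GRB10 rose and GRB7, an adaptor of receptor tyrosine kinases, fell (54.95 to 47.5 mean CPM, log2 fold change -0.21, edgeR adjusted p = 0.0275). INSR was at 19.4 and 24.0 CPM with control siRNA and at 27.7 and 26.0 CPM with Prdx2 siRNA (0.31, edgeR adjusted p = 0.0504). CTCF binds between IGF2 and H19 on the maternal copy and there insulates IGF2 from shared enhancers. CTCF RNA rose from 143 and 129 to 151 and 160 CPM (0.19, edgeR adjusted p = 0.0183, limma 0.0373). It did not pass with DESeq2 (adjusted p = 0.0903), and its value was 0.11 without control replicate 2. HMGA2, a chromatin protein that promotes IGF2BP2 transcription, fell from 26.1 and 23.9 to 18.1 and 19.1 CPM (-0.42, edgeR adjusted p = 0.00652). IGF2BP3, which binds IGF2 mRNA, fell from 128 and 122 to 112 and 105 CPM (-0.21, edgeR adjusted p = 0.00864). HMGA2, IGF2BP3 and GRB7 did not pass with DESeq2 (adjusted p of 0.131, 0.0827 and 0.322) or limma. KCNQ1OT1, a non-coding RNA of the same imprinted region, fell from 19.8 and 15.3 to 13.0 and 11.4 CPM (-0.53, edgeR adjusted p = 0.0136, DESeq2 0.137), and because it lies antisense to KCNQ1, its reads cannot be told apart from KCNQ1 pre-mRNA without strand.

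In SW480 cells 4 of the 66 genes passed, against 3.30% of all genes, 2 higher and 2 lower, with a median of 0.05. HMGA2 fell from 231 and 194 to 115 and 111 CPM (log2 fold change -0.91, SE 0.12, edgeR adjusted p = 0.00911). IGF2BP2 fell from 198 and 191 to 134 and 131 CPM (-0.55, SE 0.10, edgeR adjusted p = 0.03). Both depleted libraries lay below both controls for these genes. PIK3R2, a regulatory subunit of phosphoinositide 3-kinase, rose from 55.1 and 63.4 to 99.6 and 102 CPM (0.76, edgeR adjusted p = 0.0161). STC2, a secreted inhibitor of the IGFBP4-cleaving protease PAPPA, rose from 257 and 257 to 362 and 363 CPM (0.50, edgeR adjusted p = 0.0325) and was listed at 0 in all HT29 libraries. PAPPA itself had at most 4 counts in any library. With GC correction all 4 genes stayed past the threshold, at -0.70 for HMGA2, -0.52 for IGF2BP2, 0.47 for PIK3R2 and 0.49 for STC2. That fit called 2140 genes against 466, so a kept call there says little. Without control replicate 1 and 2 the values were -0.78 and -1.04 for HMGA2 and -0.53 and -0.58 for IGF2BP2. They were 0.66 and 0.86 for PIK3R2 and 0.49 in both cases for STC2. With limma IGF2BP2 was at -0.46 and did not pass (adjusted p = 0.0722). With 1 siPrdx2 library left out, HMGA2 passed without replicate 1 (adjusted p = 0.0479), and the other adjusted p-values were 0.0859 to 0.594. HMGA2 and PIK3R2 were past the edgeR threshold in both lines, with PIK3R2 at only 0.18 in HT29 (edgeR adjusted p = 0.0357). Neither passed with DESeq2 in HT29. The difference between the lines was 0.49 for HMGA2 (edgeR adjusted p = 0.138) and -0.57 for PIK3R2 (edgeR adjusted p = 0.0565). None of the 67 genes tested for such a difference passed with edgeR or limma, where 12 had an unadjusted p under 0.05 and DESeq2 called 2.

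Between the lines with control siRNA, 51 of 67 genes of the list differed, against 67.5% of all genes, 29 higher in HT29 and 22 higher in SW480. In the kinase arm 19 of 30 were higher in HT29 and 6 in SW480, against 31.8% and 35.7% of all genes. The arm was counted only in the fit of all control libraries without GC correction. IGF1, IGFBP7, STC1 and STC2, the 4 tested genes of the ligands and binding proteins outside the members, were all higher in SW480. Each had at most 2 counts in any HT29 control library, so it passed the count filter only through SW480. Their shared direction was thereby fixed in advance and is no result on this class. STC2 had 0 counts in both HT29 controls and 2222 and 2406 in the SW480 controls, at least 813-fold higher by the same floor of 3 counts per library. IGF2BP1 had 1 and 0 counts against 1238 and 1413, and GRB14, an inhibitory adaptor of the insulin receptor, had 182 and 156 counts in HT29 against 1 and 0 in SW480. PIK3CD, a catalytic subunit of phosphoinositide 3-kinase, was at 1.26 and 1.06 CPM in HT29 against 22.0 and 28.4 CPM in SW480 (log2 difference -4.43, edgeR adjusted p = 1.53e-06). KCNQ1, a potassium channel gene of the imprinted region, was at 33.6 and 33.8 CPM in HT29 against 0.881 and 0.815 CPM in SW480 (5.29, edgeR adjusted p = 2.27e-07), and HMGA2 at 26.6 and 24.4 against 221 and 185 CPM (-2.99, edgeR adjusted p = 3.31e-07).

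The genes whose levels followed IGF2 most closely over the 8 libraries were CRY2, RNFT2, AHDC1, IL34 and PCBP1, with Pearson r of 0.98 for the first 3 and 0.976 for the last 2 on log2(CPM + 0.5) among 14772 genes. Each of the 5 was highest in the HT29 control pair and lowest in SW480 control replicate 1, as IGF2 was. CRY2, a circadian repressor, was for instance at 25.8 and 25.9 CPM in HT29 controls and at 11.3 and 16.2 CPM in SW480 controls. The 8 points share cell line and library, so r over them describes the order of these libraries only. Among the members, r to IGF2 was 0.806 for IGF1R, 0.763 for IRS1 and 0.681 for IGFBP6, and -0.745 for IRS2 and -0.753 for IGFBP3.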

How the data were processed

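Libraries were made with the TruSeq RNA kit v2, which does not mark strand. Reads were checked with FastQC, and for the HT29 samples the study describes trimming with the Fastx-toolkit, alignment to hg19 with MapSplice and quantification with RSEM on refGene. The same steps for SW480 are not given in the sources used here. The authors deposited an expected count and a TPM value per gene and library, 25192 rows each, and 95.1% of the expected counts above 0 were whole. The FPKM column that the authors also deposited was not used in a test. The deposited TPM values are scaled to transcript length and to a library's own total.

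Expected counts were rounded and tested with edgeR 4.0.16 in R 4.3.3 (TMM, quasi-likelihood, keeping a gene with 10 or more counts in 2 or more fitted libraries, Benjamini-Hochberg, threshold 0.05). Each knockdown was fitted within its line, the lines were compared with control siRNA alone, and the difference of effects was fitted over 8 libraries. CPM values are on the scale of their own fit. Alternatives were RLE normalization, no filter, DESeq2 1.42.0, limma 3.58.1 on log2(TPM + 1), the replicate number as a block, all 8 libraries together, a loess curve on transcript GC content (span 0.5), leaving out each library, and IGF2 summed with INS-IGF2. GC content was known for 87.7% to 88.1% of tested genes. The fits were tested on simulated data.

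Named genes were the 10 members, PRDX2, IGF1, INS, INSR, INS-IGF2, IGF2-AS, up to 8 genes of the axis list with the smallest p among those called in each comparison, and the 5 genes most like IGF2. One gene that this rule names is not reported here. Members of a list called but not ranked there, IGFBP1, IGFBP5 and PAPPA were named after their values were seen. The members and lists were chosen with earlier results of these data known. Gene coordinates are GRCh37, and promoter windows are from RefSeq.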

Additional observations from a re-analysis of the deposited data

Results flagged for a closer look

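With all 8 libraries the effect of Prdx2 siRNA differed between HT29 and SW480 cells for IGFBP4, by -0.50 on the log2 scale (edgeR adjusted p = 0.0222), and for PRDX2 itself, by 0.84 (edgeR adjusted p = 0.0128). Neither passed without any 1 of the 6 libraries other than the SW480 controls (adjusted p of 0.174 to 0.198 for IGFBP4 and 0.122 to 0.159 for PRDX2), and with GC correction IGFBP4 was at -0.21 (adjusted p = 0.187) and PRDX2 at 0.97 (2.79e-06). KCNQ1OT1 was lower in both depleted HT29 libraries and higher in both depleted SW480 libraries than their controls, with a difference of -0.88 (edgeR adjusted p = 0.14) that did not pass the test. GRB7 moved in opposite directions in the same way, with a difference of -0.74 (edgeR adjusted p = 0.089). Groups of 2 libraries are too small for a check of single outlying libraries.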

How the results depend on the processing

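Of 493 values of the members and PRDX2 under alternatives, 396 kept their direction and side of the threshold, 30 changed direction, 32 lost a call and 35 gained one. In HT29, DESeq2 called 871 genes and the fit of all 8 libraries 185, against 2279. Members called were 2 with limma and 0 with all 8 libraries. Axis genes called were 3 with DESeq2 and 8 with limma, all of them higher, and 0 with all 8 libraries. Values that changed sign there were IRS1 at 0.01 with limma, and IRS2 at 0.05 with limma and 0.01 with GC correction. In SW480, against 466 genes, limma called 214, all 8 libraries 2415 and GC correction 2140. The last 2 called 3 members each, and 17 and 15 axis genes, where DESeq2 called 7. IGF2 was -0.02 with GC correction. For the difference between the lines, against 166 genes, no filter gave 267, DESeq2 311, limma 103 and GC correction 859, the last with 2 members. The difference was above 0 for 91 and below 0 for 75 of the 166 genes, against 44 and 59 with limma and 380 and 479 with GC correction. Axis genes were 1, 2 and 6 with no filter, DESeq2 and GC correction. Around 0, IGF1R was -0.0013 with RLE, -0.0016 with DESeq2 and -0.03 with limma, and IGF2R -0.03 with limma and -0.05 with GC correction. Between the lines with control siRNA IGF2R was -0.01 with limma, which moved the median of all genes by -0.11. Where no value above shows the cause, it was not tested.

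Libraries with the same replicate number deviated together only weakly (correlation of deviations 0.0651 in HT29, 0.0997 in SW480 and 0.0718 between lines). A weak correlation of this kind cannot decide whether they were paired. In HT29 the replicate block gave 2889 genes against 2279, and 21 axis genes against 15. With the replicate block SW480 gave 1727 genes, 1 member (IGFBP6, -0.43, adjusted p = 0.0334) and 13 axis genes, and IGF2R differed between lines by -0.0020. The block alone changed no other call of a member. With the block and GC correction it gave 2729 genes, 3 members and 18 axis genes in SW480, with IGF2 at -0.02, and 824 genes, 2 members and 6 axis genes for the difference, with IGF2R at -0.05 and IRS2 in HT29 at 0.01.

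Leaving out 1 library gave 1574 to 2030 genes, 3 to 5 members and 6 to 11 axis genes in HT29, and 87 to 7364, 0 to 7 and 0 to 37 in SW480. The difference ranged over 6 to 5237 genes, 0 to 4 members and 0 to 25 axis genes, and the lines over 6905 to 9970, 4 to 8 and 38 to 52. Sign changed for IGFBP2 (-0.09 to 0.17) and IRS2 (-0.06 to 0.05) in HT29, IGF2 (-0.03 to 0.41) and H19 (-0.80 to 0.06) in SW480, IGF1R (-0.11 to 0.10) and IGF2R (-0.16 to 0.14) in the difference, and IGF2R (-0.11 to 0.19) between lines. Depth limits H19, with at most 15 counts.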
